A study of Mus musculus with 7 samples.

Results

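Iron handling was examined through 10 genes that carry iron into the cell, store it, release it and sense it: Tfrc, Steap3, Slc11a2, Slc11a1, Fth1, Ftl1, Ncoa4, Slc40a1, Cp and Ireb2. Members were taken as the rows of the deposited table whose gene symbol equals one of these names, which gave 8 of the 10 among 23930 genes. Ftl1, the ferritin light chain, and Ncoa4, the receptor that delivers ferritin to the lysosome, were not analysed here. The libraries come from sorted Pax7-GFP cells of mouse hind leg muscle, 3 from normocapnia (NC1 to NC3) and 4 from hypercapnia (HC1 to HC4).

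All mice carried the inducible Pax7-GFP reporter, in which a Cre driven from the Pax7 gene switches on a green protein after tamoxifen, so that labeled cells stay green whatever they express later. The labels give C57/B6 littermates that received tamoxifen at 12 weeks of age, spent 4 weeks in normocapnia or hypercapnia and were collected at 16 weeks. In the genotype label the number after C57BL counts up from C57BL/6 in NC1 to C57BL/12 in HC4. Per the methods, normocapnia was room air and hypercapnia a chamber with 10% CO2, and leg muscles of both groups were injured with cardiotoxin, a toxin that destroys myofibers, 3 days before collection. The labels mention no injury, and the title of the deposited table carries a mark of 40 hours, which differs from those 3 days. The study used 40 hours after isolation as a time point in other assays of satellite cells, and what the mark means for these libraries is not stated. Nothing states how many mice stand behind a library, so the p-values below measure the spread between these libraries, which may be partly technical.

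Most cells take up iron bound to transferrin. The transferrin receptor (Tfrc) carries it into endosomes, where the reductase Steap3 turns ferric into ferrous iron and Slc11a2 (DMT1) moves it to the cytosol. Surplus iron is stored in ferritin shells of heavy (Fth1) and light chains. Ferroportin (Slc40a1) exports iron that is not bound in heme, with ferroxidases such as ceruloplasmin (Cp) on the outside. In regenerating muscle, macrophages clear iron from damaged fibers and red blood cells and pass it on, while dividing muscle precursors need it for DNA synthesis and respiration.

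Iron regulatory proteins, of which Ireb2 encodes the second, tune this system by binding short hairpins in the mRNA, the iron-responsive elements. When iron is scarce, binding in a 5′ UTR blocks translation, as in ferritin and ferroportin, and binding in the 3′ UTR of Tfrc protects the mRNA from decay. The hairpins of the members are shown because they mark which mRNAs can be steered in their level and which only in their translation. A search of GENCODE M21 transcripts (GRCm38), on the mRNA strand alone, asked for a C, 5 bases, the loop CAGTGN with a last base other than G, and 5 bases that pair with the first 5, G with T allowed, with at least 3 of 5 pairs in the lower stem. This form was found in a UTR of 32 of 21877 protein-coding genes, which is 0.146%, and of 4 of the 10 members. Capitals mark the loop, and each run reads 5′ to 3′.
Fth1, 5′ UTR, chr19:9982733-9982759, plus strand: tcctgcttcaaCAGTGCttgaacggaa
Ftl1, 5′ UTR, chr7:45459780-45459806, minus strand: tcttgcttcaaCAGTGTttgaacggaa
Slc40a1, 5′ UTR, chr1:45925466-45925492, minus strand: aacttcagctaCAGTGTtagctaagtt
Tfrc, 3′ UTR, chr16:32631220-32631246, plus strand: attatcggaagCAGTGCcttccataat
Tfrc, 3′ UTR, chr16:32631599-32631625, plus strand: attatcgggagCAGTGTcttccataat
Tfrc, 3′ UTR, chr16:32631664-32631690, plus strand: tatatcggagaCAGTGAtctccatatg
Tfrc, 3′ UTR, chr16:32631711-32631737, plus strand: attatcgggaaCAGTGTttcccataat
Tfrc was the only member with more than 1 match, and its 4 matches all lie in the 3′ UTR. No match in Slc11a2 says only that this strict form was absent from its transcripts, since hairpins with an extra bulge were not sought.

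The libraries held 14527445 to 23388710 reads, recovered from values in RPM (reads of a gene scaled to a fixed library total), so that 1 read is worth 0.0428 to 0.0688 RPM. Each gene was read through a single amplicon, so RPM compares a gene between libraries and not one gene with another. The libraries held transcripts of several cell types, and those of 1 group were not alike. Over all 10 satellite cell markers, the summed level was 604 to 3463 RPM in normocapnia, highest in NC1 and lowest in NC3, and 779 to 1552 RPM in hypercapnia. Pax7 itself ran from 4.34 RPM in NC3 to 268 RPM in NC1. Over all 10 macrophage markers the sum was lowest in NC1 (11426 RPM) and highest in NC3 (33356 RPM), with 18704 to 23616 RPM in hypercapnia, but Lyz2 alone made up 64.6% to 87.3% of it. Without Lyz2, a sum formed after its values were seen, the other 9 markers gave 3072 RPM in NC1, 7301 RPM in NC2 and 4248 RPM in NC3, with 4253 to 6888 RPM in hypercapnia, so that NC2 was highest and NC3 was no longer apart. C1qa among them stayed under 1 RPM in every library. Hypercapnia split into pairs. Endothelial markers summed to 50.8 and 39.2 RPM in HC1 and HC2 against 416 and 321 RPM in HC3 and HC4. Fibro-adipogenic markers summed to 827 and 736 RPM against 1631 and 2072 RPM, and satellite cell markers to 807 and 779 RPM against 1552 and 1319 RPM. Macrophage markers without Lyz2 went the other way, with 6888 and 6678 RPM against 4253 and 4616 RPM. Myofiber markers ran from 121 RPM in NC3 to 2754 RPM in NC1. Of the red blood cell markers, 3 of 9 were in the table, and their sum did not exceed 16.4 RPM. In such bulk samples, fewer cells of a type and less RNA per cell cannot be told apart.

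**Figure D1:**
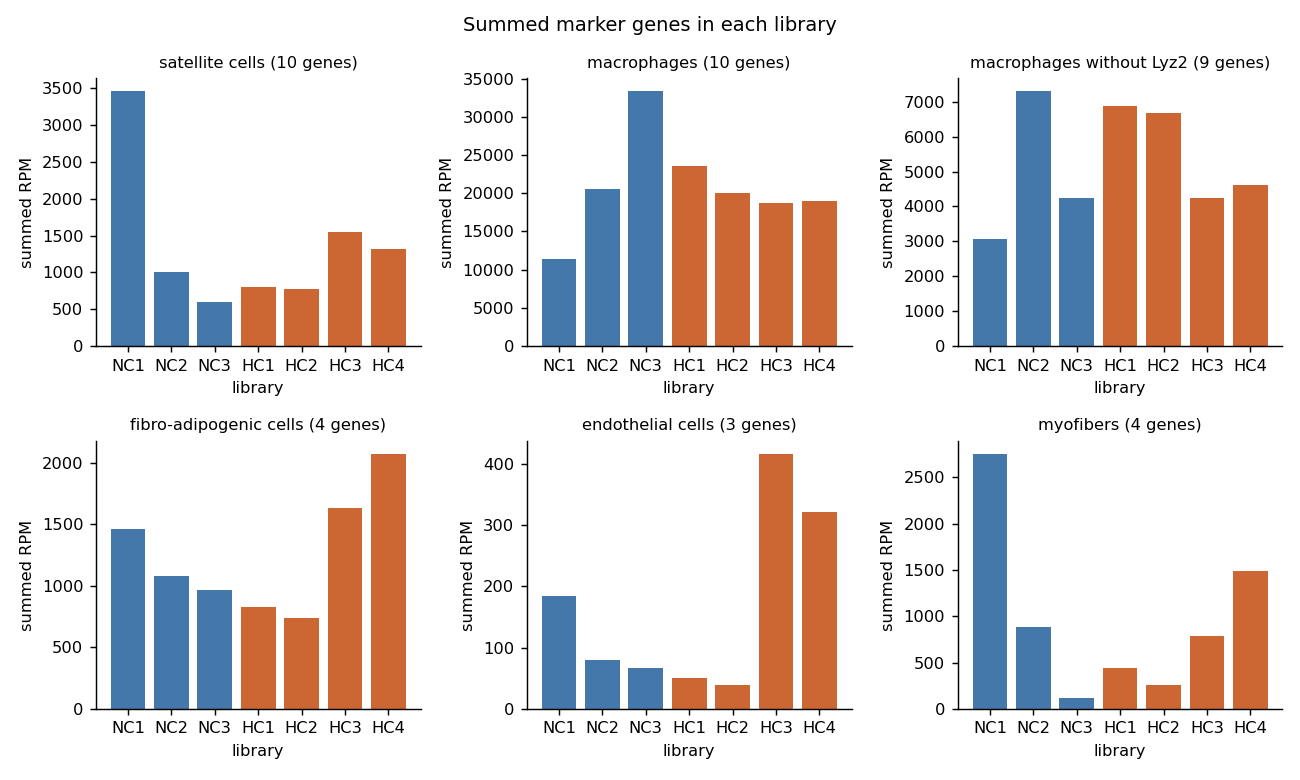
Summed RPM of marker genes (bars, y axis from 0) in each library (x axis), blue for normocapnia and orange for hypercapnia, with macrophage markers shown with and without Lyz2. NC1 is highest for satellite cell markers (3463 RPM) and NC3 for macrophage markers with Lyz2 (33356 RPM) but not without it (4248 RPM), and HC3 and HC4 exceed HC1 and HC2 for endothelial and fibro-adipogenic markers.

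Of the 8 members measured, only Tfrc was called, and it was higher in hypercapnia. A gene was called at an unadjusted limma p under 0.05 and a change of over 1.5-fold on log2(RPM + 1), with the threshold values that the study used for its own calls by another tool. Those thresholds called 2.57% of all genes in either direction (1.43% higher, 1.14% lower) and, of the 12504 genes averaging 1 RPM or more, 4.75% (2.66% higher, 2.1% lower). The share called in either direction was 6.03% in edgeR and 6.25% in DESeq2, each of which called Tfrc alone among the members. The members' count is a single gene, which does not set them apart from this background. After Benjamini-Hochberg adjustment limma called 0 genes of the whole table, against 1114 at an unadjusted p under 0.05, as did edgeR, whereas DESeq2 called 29 (0.139%), with none of the 7 members above a few reads among them. The hypercapnia range lay wholly inside the normocapnia range for 2 of the 7 members above a few reads, Slc11a1 and Ireb2.

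**Figure D2:**
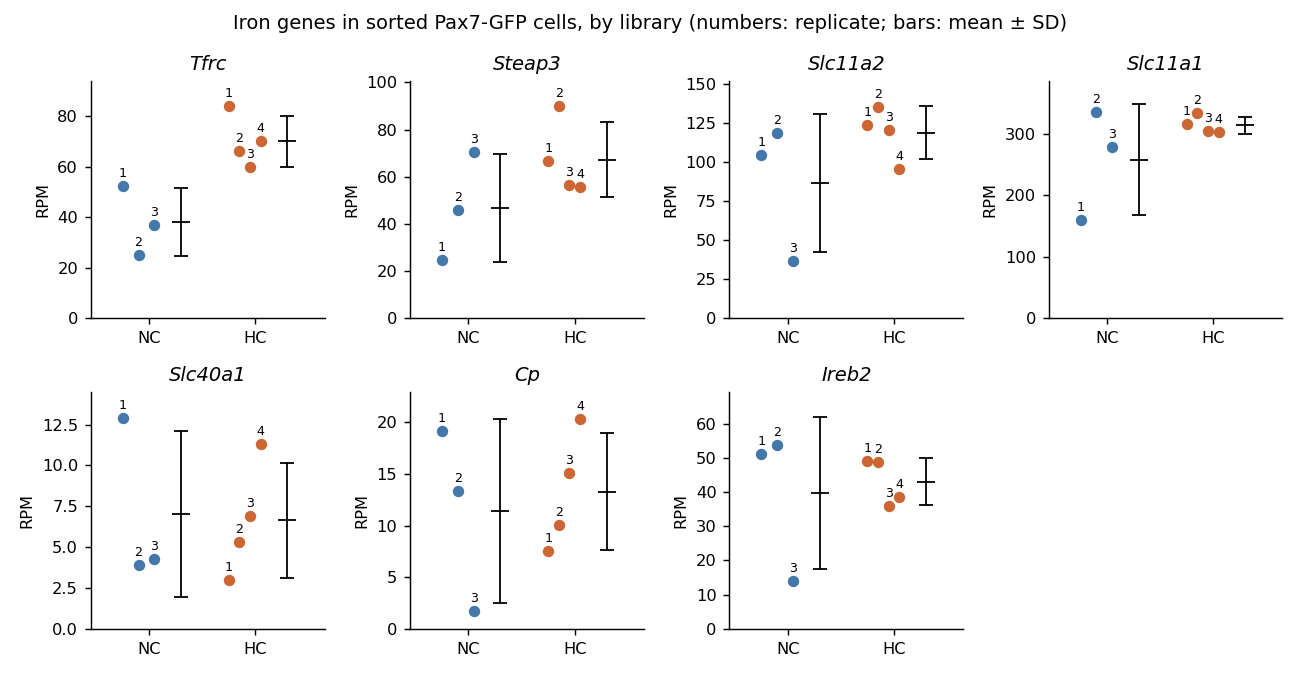
RPM of 7 iron genes in each library (points, numbered by replicate, blue for normocapnia and orange for hypercapnia), with the group mean ± SD beside the points on axes that start at 0. The groups are apart for Tfrc, with 59.9 RPM as the lowest hypercapnia value and 52.2 RPM as the highest normocapnia value, and overlap for the other 6 genes.

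Tfrc, the entry door for transferrin iron, stood at 52.2, 25.2 and 36.9 RPM in normocapnia (NC1 to NC3, the order used for all values here) and at 84.0, 66.2, 59.9 and 70.0 RPM in hypercapnia (HC1 to HC4). Every hypercapnia library was above every normocapnia library, a pattern seen in 2.53% of all genes and in 4.09% of those at 1 RPM or more. The mean was 38.1 ± 13.5 RPM (SD, n = 3) in normocapnia and 70.0 ± 10.2 RPM (SD, n = 4) in hypercapnia. The log2 difference was 0.91 (SE 0.26, 95% interval 0.26 to 1.56), or 1.88-fold, with a limma p of 0.0149 before and 0.900 after adjustment over all genes. An exact two-sided permutation test gave p = 0.0571, the smallest that 3 against 4 libraries allow, so that this test cannot go below 0.05 here. This gene rested on 536 to 1962 reads per library.

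The call of Tfrc held in all 16 alternatives, among them edgeR (log2 difference 0.79), DESeq2 (0.75) and leaving out each library. It was smallest without NC2 (0.65) and largest without NC1 (1.16), and the adjusted p over these alternatives ran from 0.181 to 0.961. All genes at 1 RPM or more had a median log2 difference of 0.16, which median-of-ratios scaling brought to 0.04 and quantile normalization to -0.01, while Tfrc stayed at 0.77 and 0.83. Of the 10 macrophage markers, 7 had a higher and 3 (Lyz2, Csf1r and Cd14) a lower mean in hypercapnia, and the groups were apart for Adgre1 alone, with 109, 149 and 70.5 RPM against 392, 429, 151 and 184 RPM. Of the 6 neutrophil markers, 5 had a higher mean, and the groups were apart for Mmp8 alone, with 7.54, 17.02 and 16.7 RPM against 34.6, 27.0, 35.0 and 32.6 RPM. Of the 10 satellite cell markers, 9 had a lower mean RPM in hypercapnia, with overlapping groups throughout. NC1 weighed heavily on the normocapnia means. The markers summed to 3463, 1000 and 604 RPM in normocapnia and to 807, 779, 1552 and 1319 RPM in hypercapnia. Pax7 was at 268, 8.25 and 4.34 RPM against 21.5, 20.1, 79.5 and 59.7 RPM, so all hypercapnia libraries were above NC2 and NC3 for this gene. HC1 was the highest and HC3 the lowest hypercapnia library for both Tfrc and the macrophage sum, with or without Lyz2. In normocapnia, by contrast, Tfrc was highest in NC1, where the macrophage sum was lowest with or without Lyz2. It was lowest in NC2, where the sum without Lyz2 was highest. Whether the mix of cells has a part in the difference was not tested.

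Steap3, the endosomal reductase that works downstream of Tfrc, was at 24.6, 45.7 and 70.4 RPM in normocapnia and at 66.5, 89.8, 56.7 and 55.7 RPM in hypercapnia. NC3 lay inside the hypercapnia range, whereas NC1 and NC2 lay below it. The log2 difference of 0.60 (SE 0.39, 95% interval -0.36 to 1.57) did not pass (limma adjusted p = 0.915). Without NC3 it was 0.95 and was called (limma adjusted p = 0.676), and without NC1 it was 0.21. Within normocapnia, Steap3 stood in the order of Lyz2 (8354, 13313 and 29108 RPM), but not in that of the other macrophage markers summed, which were highest in NC2. Their part in the result was not tested.

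Slc11a2 (DMT1), which carries ferrous iron out of the endosome, had 104, 119 and 36.4 RPM in normocapnia and 124, 135, 121 and 95.3 RPM in hypercapnia. NC3 alone was far below the rest, and NC1 and NC2 fell within the hypercapnia range. The log2 difference was 0.61 (SE 0.44, 95% interval -0.49 to 1.71, limma adjusted p = 0.915). It was 0.08 without NC3, so that this library carries most of it.

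Slc11a1 (NRAMP1) is the relative of DMT1 that pumps metal ions out of the phagosome, known mainly from macrophages and neutrophils. Its values were 160, 336 and 279 RPM in normocapnia and 316, 333, 304 and 302 RPM in hypercapnia. NC1, the library with the lowest macrophage marker sum with or without Lyz2, was alone at the low end, and the other 6 libraries lay within 279 to 336 RPM. The 6 neutrophil markers summed to 81.5 to 222 RPM in normocapnia and 105 to 323 RPM in hypercapnia. The part of either cell type in these values was not tested. The log2 difference of 0.35 (SE 0.26, 95% interval -0.30 to 0.99) did not pass (limma adjusted p = 0.915), and without NC1 it was 0.04.

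**Figure D3:**
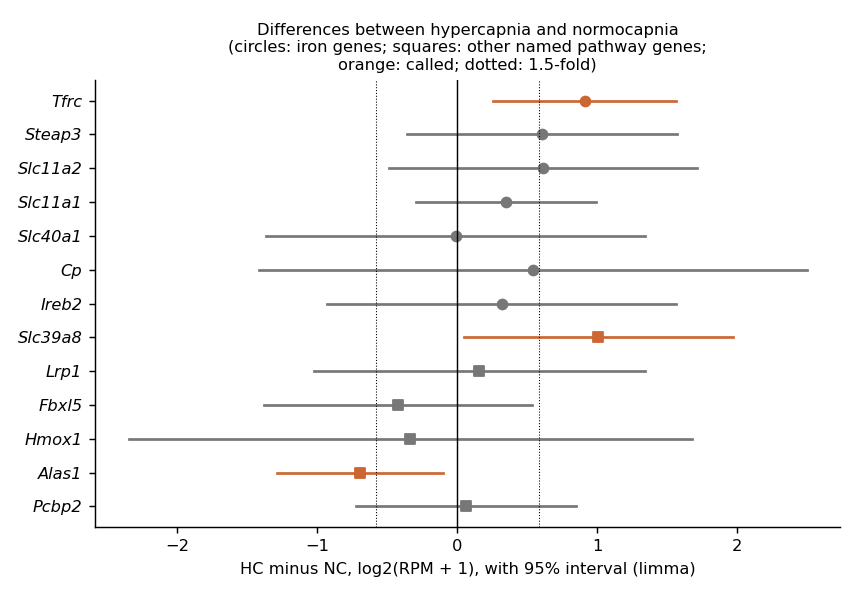
Hypercapnia minus normocapnia on log2(RPM + 1) for 7 iron genes (circles) and 6 other named genes of iron handling (squares), with 95% intervals from limma and dotted lines at a 1.5-fold change. Tfrc (0.91) and Slc39a8 (1.01) are called higher and Alas1 (-0.69) lower (orange), while the intervals of the other genes include 0.

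Fth1 encodes the ferritin heavy chain, which oxidizes iron as it enters the shell and is made by practically every cell. In the table it is listed at 0 in NC1, NC2, NC3 and HC1, at 0.050 RPM in HC2, 0.187 RPM in HC3 and 0.068 RPM in HC4, which are 0, 0, 0, 0, 1, 3 and 1 reads. With all values at or under the floor of 3 reads (0.128 to 0.207 RPM), this amplicon gave no usable level of ferritin, and no fold is given. Fth1 also has near-identical copies elsewhere in the genome, so that even these reads are uncertain. Of its relatives, Fthl17a reached 0.069 RPM at most and Fthl17f 1.15 RPM, in HC4.

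Slc40a1 (ferroportin), the exporter, was at 12.9, 3.89 and 4.27 RPM in normocapnia and at 3.0, 5.33, 6.94 and 11.3 RPM in hypercapnia. The groups covered nearly the same range, with NC1 and HC4 at the top and HC1 at the bottom. The log2 difference was -0.01 (SE 0.54, 95% interval -1.37 to 1.34, limma adjusted p = 1.0), which leaves room for more than a doubling in either direction. It was 0.47 without NC1 and -0.28 without HC4. Only 62 to 289 reads per library stood behind it, and in NC3 the exact binomial 95% interval, which covers counting error alone, was 3.27 to 5.47 RPM.

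Within a library, the log2 ratio of exporter to receptor (Slc40a1 over Tfrc) was -2.02, -2.69 and -3.11 in normocapnia and -4.81, -3.64, -3.11 and -2.63 in hypercapnia. HC1 and HC2 were below all normocapnia libraries, and HC3 and HC4 were within their range. The log2 ratio of Tfrc to Slc11a1 was -1.61, -3.74 and -2.92 in normocapnia and -1.91, -2.33, -2.34 and -2.11 in hypercapnia. Relative to Slc11a1, Tfrc was thus not apart between the groups, with NC1 the highest of all libraries and the hypercapnia range inside that of normocapnia. The log2 ratio of Slc11a1 to Slc11a2 ran from 0.61 in NC1 to 2.94 in NC3, and the hypercapnia libraries lay between them at 1.298 to 1.665.

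Cp, the multicopper ferroxidase that helps iron load onto transferrin, was at 19.2, 13.3 and 1.72 RPM in normocapnia and at 7.53, 10.0, 15.1 and 20.3 RPM in hypercapnia. NC3 held 25 reads (exact binomial 95% interval 1.11 to 2.54 RPM) and lay apart from the other 6 libraries. The log2 difference was 0.54 (SE 0.78, 95% interval -1.42 to 2.50, limma adjusted p = 0.927), and it turned to -0.34 without NC3. Without NC1 it was 1.103, still not called.

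Ireb2, the sensor that binds the hairpins above and whose protein is destroyed when iron is plentiful, was at 51.1, 53.7 and 14.1 RPM in normocapnia and at 49.0, 48.6, 35.9 and 38.7 RPM in hypercapnia. Here NC3 was again the lowest, while NC1 and NC2 were above every hypercapnia library. The log2 difference of 0.32 (SE 0.50, 95% interval -0.93 to 1.56, limma adjusted p = 0.938) turned to -0.29 without NC3, where it was not called either. A level of mRNA does not show the amount of this protein.

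Taking the 7 members that averaged 1 RPM or more, 6 had a log2 difference above 0, with a median of 0.54, beside 62.1% above 0 and a median of 0.16 for all genes at 1 RPM or more. Without NC3 the members' median was 0.08, with 4 above 0, and that of all genes at 1 RPM or more -0.07. On whole reads the members' median was 0.27 in edgeR and 0.22 in DESeq2, beside -0.01 and -0.04 for all genes at 1 RPM or more. The same tools put Steap3 at 0.27 and 0.22, Slc11a1 at 0.095 and 0.051, Cp at 0.27 and 0.24 and Ireb2 at 0.14 and 0.11. Slc11a2 was at 0.45 and 0.42 and Slc40a1 at -0.09 and -0.14. Each of these genes kept its direction and was without a call. The SD of log2(RPM + 1) was larger in normocapnia than in hypercapnia for all 7 members, as it was for 81.1% of all genes at 1 RPM or more. Its median over the members was 0.84 in normocapnia and 0.22 in hypercapnia. NC3 was the lowest of the 7 libraries for Slc11a2, Cp and Ireb2, and NC1 for Slc11a1 and Steap3. NC3 also had the fewest reads (14527445) and the fewest genes at 1 RPM or more (10619, against 11322 to 13932 in the other libraries).

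**Figure D4:**
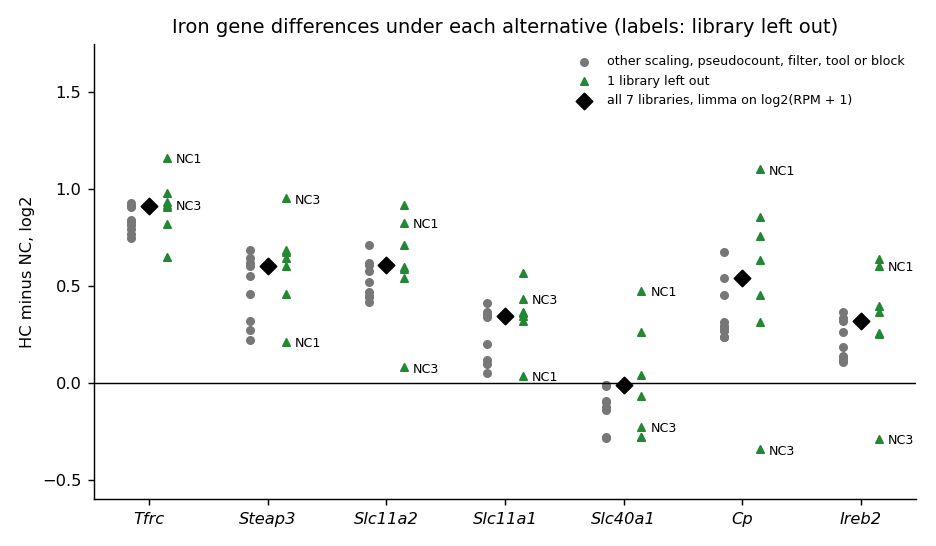
Hypercapnia minus normocapnia on the log2 scale for 7 iron genes: with all libraries (diamonds), under other scalings, pseudocounts, filters, tools or a replicate block (gray circles), and with 1 library left out (green triangles, labeled where NC1 or NC3 is left out). Tfrc stays between 0.65 and 1.16, while Slc11a2 moves to 0.08 and Cp and Ireb2 move below 0 without NC3.

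Across the rest of iron handling, 2 of 46 measured genes in 5 lists were called, 1 higher and 1 lower, and after adjustment limma called 0 of them, with 2 at an unadjusted p under 0.05. Beside the 2.57% of all genes and 4.75% of those at 1 RPM or more that were called, this count does not stand out. For other routes of iron entry, chiefly of free and heme-bound iron but with transferrin receptor 2 (Tfr2) included (14 genes in the table, median log2 difference 0.15), Slc39a8 was called higher and 0 lower. Slc39a8 (ZIP8), a carrier of zinc, manganese and ferrous iron, was at 6.56, 2.78 and 2.89 RPM in normocapnia and at 13.6, 10.4, 6.56 and 5.96 RPM in hypercapnia. Its groups overlapped, with NC1 level with HC3 and above HC4. The log2 difference was 1.01 (SE 0.38, limma adjusted p = 0.915, exact permutation p = 0.114), and the call held in 8 of 16 alternatives and was lost on leaving out any one of NC2, NC3, HC1, HC2 and HC3 (0.81 to 1.13). It was also lost with a pseudocount of 5 RPM (0.63), median-of-ratios scaling (0.90) and quantile normalization (0.59). Lrp1, the endocytic receptor for heme bound to hemopexin, is named for the highest mean RPM of the list, with 556, 1615 and 497 RPM against 947, 1132, 718 and 685 RPM. Its groups overlapped (log2 difference 0.16), and it was called higher without NC2 alone (0.70).

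Among 14 measured genes for iron chaperones and mitochondrial iron use (median log2 difference 0.11), Alas1 was called lower and 0 genes higher. Alas1, the first enzyme of heme synthesis outside red blood cells, was at 78.5, 106 and 157 RPM in normocapnia and at 73.8, 62.8, 70.3 and 62.3 RPM in hypercapnia. All hypercapnia libraries were below all normocapnia libraries, as in 2.3% of all genes and 3.63% of those at 1 RPM or more. The log2 difference was -0.69 (SE 0.24, limma adjusted p = 0.915, exact permutation p = 0.0571), and the call held in 7 of 16 alternatives. Without NC3, whose value was the highest, it was -0.44 and under the fold threshold. The call was also lost on leaving out NC2, HC2, HC3 or HC4 (-0.66 to -0.72), with the filter at 1 RPM (-0.69), under quantile normalization (-0.69) or median-of-ratios scaling (-0.84), and with the replicate number as a block (-0.66). Pcbp2, a chaperone that hands iron to ferritin, had the highest mean RPM of this list, the rule by which it is named, at 1213, 823 and 490 RPM against 721, 786, 906 and 897 RPM, with overlapping groups.

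In the lists for iron sensing with the hepcidin axis (9 genes in the table, median -0.08) and for heme export and breakdown (7 genes, median -0.09), 0 genes were called. Hmox1, the heme oxygenase that frees iron from heme, spread widely in normocapnia at 249, 764 and 2768 RPM, with 717, 706, 606 and 547 RPM in hypercapnia. Its normocapnia values stood in the order of Lyz2, while 7 of the 10 macrophage markers were higher in NC2 than in NC3. Of those 7, C1qa had no usable level, with 0.043 RPM in NC2 against 0 in NC3. The part of macrophages was not tested. Its log2 difference of -0.33 (SE 0.81, limma adjusted p = 0.991) turned to 0.55 without NC3 and was -1.36 in edgeR and -1.42 in DESeq2, without a call. Fbxl5, the ligase subunit that targets the Ireb2 protein for breakdown, was at 98.6, 279 and 119 RPM in normocapnia and at 131, 96.5, 100.3 and 117 RPM in hypercapnia, with a log2 difference of -0.42 (SE 0.38, limma adjusted p = 0.915). NC2 decided its direction, since it was 0.027 without that library, and it was -0.71 in edgeR and -0.74 in DESeq2, without a call. Hepcidin itself (Hamp) stayed at or under 0.275 RPM in every library. The 2 ferritin relatives in the table were not called either.

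Of the 32 genes with the hairpin in a UTR, 28 were in the table and 21 averaged 1 RPM or more. Limma called 2 of the 28, Tfrc higher and Pdcd4 lower, and the median log2 difference of those at 1 RPM or more was 0.19, close to the 0.16 of all genes at that level. With 2.57% of all genes called, and 4.75% of those at 1 RPM or more, a count of 2 is not a result about these genes. Pdcd4, an inhibitor of translation initiation singled out after its values were seen, had means of 97.2 RPM in normocapnia and 36.8 RPM in hypercapnia (log2 difference -1.36, SE 0.34, limma adjusted p = 0.827). Its hypercapnia libraries were all below normocapnia, as in 2.3% of all genes and 3.63% of those at 1 RPM or more. The match in Pdcd4 is a description of its letters and does not make it a site.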

How the data were processed

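Pax7-GFP cells were sorted, and RNA was copied with an Ion AmpliSeq mouse panel and sequenced on an Ion GeneStudio S5 Plus. The authors deposited RPM per gene and library. The sources used here name neither aligner nor build. The submitters' processing notes name the Transcriptome Analysis Console. Every value was a whole number of reads within 0.05 (100% of values), which gave the library totals; the recovery was right in 3 of 3 simulated libraries.

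The 23930 genes were fitted together with limma 3.58.1 in R 4.3.3, as log2(RPM + 1), with Benjamini-Hochberg adjustment. Called genes named among members and lists were also tested by an exact two-sided permutation of the libraries, added after seeing the data. In simulated libraries with 200 genes changed 4-fold, limma called 100% at a dispersion of 0.02 and 61% at 0.4, together with 0.01% and 3.24% of the unchanged genes. Alternatives were pseudocounts of 0.1 and 5 RPM, a mean of at least 1 RPM, median-of-ratios and quantile scaling, the recovered reads in edgeR 4.0.16 (802 genes called) and DESeq2 1.42.0 (1304 called), the replicate number as a block, and omission of each library in turn.

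Named were all members, and in each list the called genes (at most 5) and the gene with the highest mean. The members and lists were chosen with earlier results of these data known, and the hairpin search and Pdcd4 after values were seen. Hemojuvelin, Flvcr1 and Flvcr2 were matched by their older symbols (Hfe2, Mfsd7b, Mfsd7c).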

Additional observations from a re-analysis of the deposited data

Results flagged for a closer look

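Among the hypercapnia libraries, Fthl17f, a relative of the ferritin heavy chain, was set apart by HC4, which held 1.15 RPM while HC1 to HC3 held 0.043 RPM or less. This was the only one of 22 groups of 4 values tested (named genes and marker sums) whose most distant library passed Dixon's 95% limit, and chance flags about 1 in 20 such groups. The height of HC4 was not particular to Fthl17f. HC4 also held 6.23 RPM of Ftmt and 3.39 RPM of Tfr2, against at most 0.214 and 0.856 RPM in HC1 to HC3, though Fthl17a was at 0. It had the most genes at 1 RPM or more of all libraries (13932, with NC1 next at 12462).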

How the results depend on the processing

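Tfrc kept its direction and call under all 16 alternatives, and leaving out 1 library gave 0.65 to 1.16. The count of members called ranged from 1 to 2 on leaving out 1 library, with Steap3 added without NC3. The count of pathway genes called, 2 of 46, was 1 under quantile normalization, 1 after median-of-ratios scaling, 3 in DESeq2 and in edgeR with or without a filter, and 0 to 5 on leaving out 1 library (5 without NC1, 0 without NC3 or HC2, and 1 without HC1, HC3 or HC4). Of all genes, 615 were called (343 higher, 272 lower), 1049 in edgeR without a filter (407 and 642), 1304 in DESeq2 (519 and 785), 802 in edgeR with a filter (294 and 508), and 376 (without HC2) to 1990 (without NC1) on leaving out 1 library, with 1205 without NC2 and 385 without HC1. Differences that were not called and changed sign were those of Slc40a1 (-0.28 to 0.47 on leaving out 1 library), Cp (-0.343 to 1.103), Ireb2 (-0.29 to 0.64), Fbxl5 (-0.72 to 0.027), Hmox1 (-1.18 to 0.55), Lrp1 (-0.15 to 0.70, called only at the upper end, without NC2, and -0.12 and -0.11 in edgeR with and without a filter, -0.14 in DESeq2) and Pcbp2 (-0.28 to 0.37, -0.08 after median-of-ratios scaling, -0.051 and -0.053 in edgeR with and without a filter, -0.09 in DESeq2). The causes were not tested. Deviations from the group mean correlated at -0.35, 0.50 and -0.04 between libraries of the same number 1 to 3, over genes at 1 RPM or more. The 0.50 of NC2 with HC2 was the highest of all pairs across the groups, next to 0.45 for NC2 with HC1. With so few libraries, these values cannot decide whether the number pairs them. With the replicate block, in which HC4 has no partner and drops out, Tfrc was at 0.91, with 1 member, 2 pathway genes and 598 of all genes called, while Alas1 lost its call (-0.66). Few reads limit the precision of Slc40a1 (62 to 289 reads) and of Cp in NC3 (25 reads).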
